A study of Rattus norvegicus with 12 samples.

Results

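The 27 genes described here encode the enzymes of cholesterol synthesis, the transcription factor SREBP2 with the proteins that control it, and a sterol carrier and a sterol esterifying enzyme. They were chosen by gene symbol for these roles, and each of them had 1 row among the 22850 features of the count and FPKM tables. Primary atrial fibroblasts of newborn Sprague-Dawley rats were grown for 48 h with angiotensin II at 1 μmol/L (AngII), with HNG at 10 μmol/L added 1 h earlier (AngII+HNG), or with MOTS-c at 5 μmol/L added 1 h earlier (AngII+MOTS-c). All groups received AngII and medium with 2% FBS, untreated cells were not analysed here, and the comparisons show what each peptide added to AngII. HNG is a humanin analogue with glycine at residue 14, humanin and MOTS-c being small peptides ascribed to mitochondrial genes, and the doses of the 2 peptides differed. The cells were enriched by their early attachment to the dish and were not sorted. Each treatment had 4 libraries, described in the methods of the study as biological replicates. The library names give replicates 2 and 3 of every treatment the same number, so it is not known whether these stem from 1 cell preparation. They number replicate 1 as 2 in AngII+MOTS-c and as 1 in AngII and AngII+HNG.

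Cholesterol is built from acetyl-CoA. The mevalonate enzymes make the isoprenoid units farnesyl and geranylgeranyl diphosphate, which also serve protein prenylation, and the enzymes from squalene onward close, oxidise and demethylate the sterol ring. SREBP2, encoded by Srebf2, is held in the endoplasmic reticulum by Scap and the Insig proteins while membrane sterol is high. When sterol falls, Scap escorts it to the Golgi, where the proteases encoded by Mbtps1 and Mbtps2 release the part that enters the nucleus and switches on the genes of the pathway. This step of control acts on the protein, and its state cannot be read from mRNA levels of Srebf2 alone. Fibroblasts use the pathway for their membranes and for prenylated signalling proteins.

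The libraries held 27960586 to 38322354 counts, and values per library are given as CPM, counts divided by the library total after TMM scaling, which evens out the composition of the libraries. The 27 genes had 411 to 17487 counts per library and passed the filter on low counts in every comparison. Together they took 0.354% to 0.372% of the counts in AngII, 0.335% to 0.354% in AngII+HNG and 0.345% to 0.366% in AngII+MOTS-c. Replicate 3 of AngII+HNG stood apart, being the lowest of its group for 12 and the highest for 9 of the 27 genes. Fits without it are cited below for Idi1, Fdps, Msmo1, Sc5d, Scap and Ggps1, but not for Hmgcs1, Hsd17b7 and Pmvk.

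Promoters are shown for the 4 genes that passed the test below and for Srebf2, because sterol genes are read through short elements close to the start site. The promoter table used here, from RefSeq (GRCr8), had an entry for 23 of the 27 genes, each spanning 250 bases before to 50 after the start. Capitals mark, on either strand, TCACNCCA (a core of the sterol regulatory element that SREBP2 binds), CCAAT (the box of NF-Y), GGGCGG (the box of Sp1) and CACGTG (the E-box), and no capital in the 5 runs belongs to more than 1 motif.
Idi1: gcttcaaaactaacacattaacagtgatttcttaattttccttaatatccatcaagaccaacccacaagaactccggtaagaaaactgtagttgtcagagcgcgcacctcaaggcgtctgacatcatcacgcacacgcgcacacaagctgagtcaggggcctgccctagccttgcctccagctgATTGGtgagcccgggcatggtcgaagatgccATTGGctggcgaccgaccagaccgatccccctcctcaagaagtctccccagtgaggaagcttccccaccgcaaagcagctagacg
Msmo1: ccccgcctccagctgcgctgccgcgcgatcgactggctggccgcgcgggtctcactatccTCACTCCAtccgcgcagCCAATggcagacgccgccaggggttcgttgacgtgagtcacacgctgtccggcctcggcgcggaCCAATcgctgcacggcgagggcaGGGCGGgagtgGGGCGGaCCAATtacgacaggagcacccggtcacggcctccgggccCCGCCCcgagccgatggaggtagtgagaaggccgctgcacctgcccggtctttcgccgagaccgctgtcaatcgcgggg
Nsdhl: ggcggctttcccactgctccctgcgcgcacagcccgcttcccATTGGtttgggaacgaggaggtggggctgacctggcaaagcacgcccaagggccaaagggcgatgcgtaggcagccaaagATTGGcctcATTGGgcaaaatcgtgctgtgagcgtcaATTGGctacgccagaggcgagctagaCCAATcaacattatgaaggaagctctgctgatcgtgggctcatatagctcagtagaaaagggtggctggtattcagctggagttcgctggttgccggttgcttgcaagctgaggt
Sc5d: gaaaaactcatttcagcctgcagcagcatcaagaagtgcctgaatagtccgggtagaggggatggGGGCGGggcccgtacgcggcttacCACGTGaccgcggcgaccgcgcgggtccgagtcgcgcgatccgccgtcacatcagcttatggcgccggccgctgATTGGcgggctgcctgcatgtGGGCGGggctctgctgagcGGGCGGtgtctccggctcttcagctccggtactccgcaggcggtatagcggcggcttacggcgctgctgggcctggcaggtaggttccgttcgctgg
Srebf2: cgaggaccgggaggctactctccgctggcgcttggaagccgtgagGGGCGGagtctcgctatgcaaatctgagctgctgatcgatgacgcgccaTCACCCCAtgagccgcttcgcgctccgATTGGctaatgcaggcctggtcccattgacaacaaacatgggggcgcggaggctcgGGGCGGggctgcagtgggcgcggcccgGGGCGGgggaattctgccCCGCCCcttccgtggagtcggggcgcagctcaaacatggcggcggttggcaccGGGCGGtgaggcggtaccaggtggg

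The run for Idi1 is chr17:66547475-66547774 on the minus strand and holds 2 CCAAT boxes. The run for Msmo1 is chr16:29746863-29747162 on the plus strand, with 1 TCACNCCA, 3 CCAAT and 3 GGGCGG. Nsdhl is read from chrX:155817110-155817409 on the plus strand, and its capitals are 5 CCAAT boxes. Sc5d is read from chr8:51538228-51538527 on the minus strand, with 1 CCAAT, 3 GGGCGG and 1 CACGTG. Srebf2 at chr7:115543057-115543356 on the plus strand has 1 TCACNCCA, 1 CCAAT and 5 GGGCGG. Over the 23 promoters TCACNCCA was found in 2 (8.7%), against 3.89% of all 33469 promoters in the table. CCAAT was found in 17 (73.9%, against 37.5% of all), GGGCGG in 18 (78.3% against 33.1%) and CACGTG in 3 (13%, against 6.42%). The share of all promoters was taken over every entry, whether or not its gene was expressed in these cells. Promoters of genes with like expression were not compared. A match is a description of letters in this window and not a binding site.

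Levels were compared between genes in FPKM, which divides a count by gene length and library total. Fdps, which makes farnesyl diphosphate, had the highest level, with 268.9 ± 18.3 FPKM (mean and SD, n = 12 libraries). Insig2 had the lowest, 6.32 ± 0.39 FPKM, a 42.5-fold span. Above 100 FPKM came 4 further genes, the lanosterol demethylase Cyp51 (140.9 ± 6.23), Insig1 (125.6 ± 5.17), the HMG-CoA synthase Hmgcs1 (123.2 ± 6.17) and the sterol methyl oxidase Msmo1 (109.6 ± 9.32). Insig1 and Insig2 encode proteins of like function and differed 19.9-fold in level. Srebf2 stood in the middle of the order with 23.7 ± 0.642 FPKM, and Scap, its escort, had 15.7 ± 1.23 FPKM. The sterol carrier Stard4, the geranylgeranyl diphosphate synthase Ggps1, the ketosteroid reductase Hsd17b7, the protease gene Mbtps2 and Insig2 were below 10 FPKM. In the order of levels 22 of the 26 pairs of neighbours overlapped in their ranges, so the order between them was not separated by these libraries. The steps that did not overlap were Fdps above Cyp51, the thiolase gene Acat2 above Mbtps1, the cholesterol acyltransferase Soat1 above Mvd, and Scap above Ebp. Within AngII the coefficient of variation ran from 1.68% for the sterol dehydrogenase Nsdhl to 15.7% for the sterol reductase Tm7sf2, with a median of 3.65%.

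**Figure D1:**
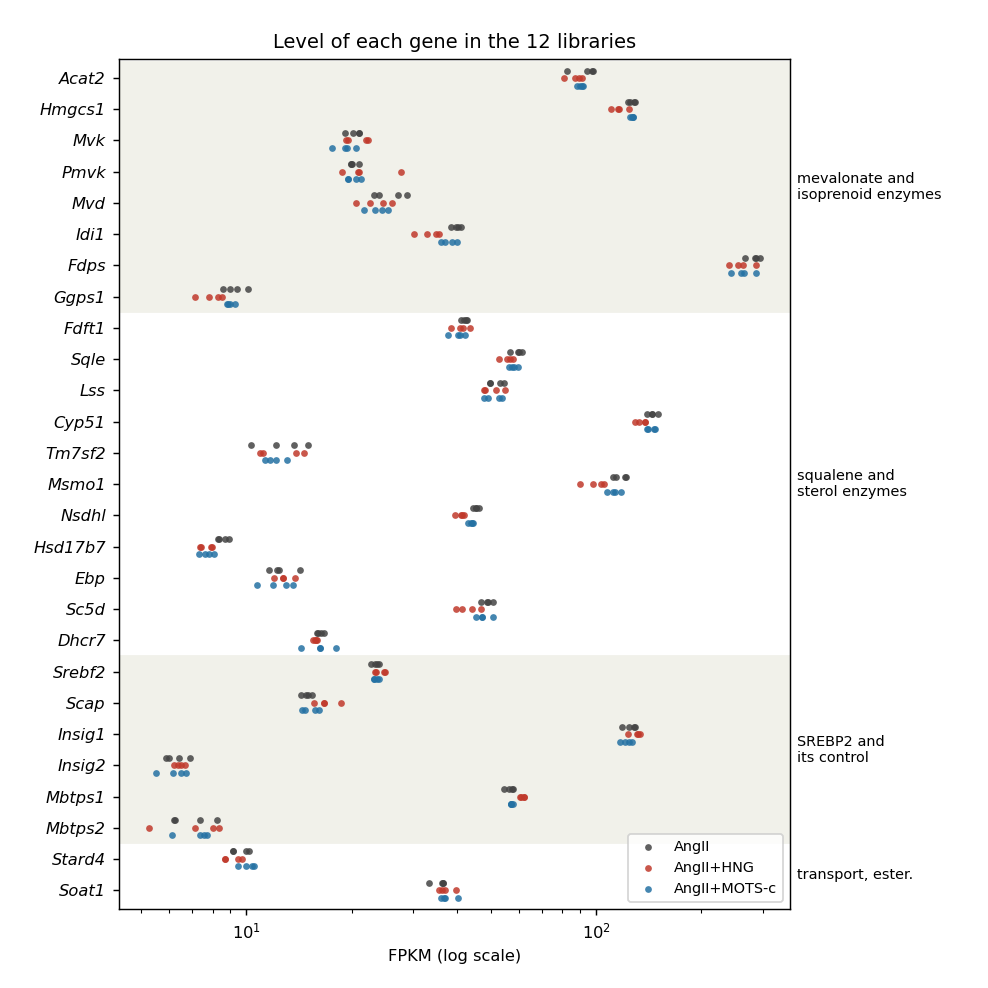
FPKM of each of the 27 genes (log axis) in the 12 libraries, 1 point per library and coloured by treatment, with shaded bands separating the roles. Fdps lies highest and Insig2 lowest, and the 3 treatments of a gene lie close together beside the distance between genes.

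With HNG, 4 of the 27 genes fell, all of them enzymes, and edgeR called 0 higher. The decreases were small, from 10.1% to 17.4%. They concerned the isomerase Idi1 (log2 fold change -0.28), the sterol methyl oxidase Msmo1 (-0.26), the lathosterol oxidase Sc5d (-0.20) and the sterol dehydrogenase Nsdhl (-0.15). The 4 genes are 14.8% of the list, where 2.58% of the 14524 genes tested were called lower and 3.4% higher (edgeR quasi-likelihood test, Benjamini-Hochberg adjusted p below 0.05). The list was chosen with earlier results of these data known, so these shares are set side by side as a description only. DESeq2 called 6 genes lower, these 4 with Hmgcs1 and Cyp51, and 1 higher, Mbtps1. Over all genes DESeq2 called 1192 of 18043, 612 of them higher. For rises, 2 genes had an unadjusted p below 0.05. In either direction 11 genes, 9 of them lower, had an unadjusted p below 0.05, against 20.3% of all genes. The log2 fold change was below 0 for 18 and above 0 for 9 genes, with a median of -0.075, where the median of all tested genes was 0.0043. In 7 genes all AngII+HNG libraries lay below all AngII libraries (6.55% of all genes), and in 1 gene above (7.03%). The calls depended in part on single libraries. The number of genes called lower was 2 without AngII replicate 1, 2 without AngII replicate 2 and 2 without replicate 4 of both groups, and it was 5 without AngII+HNG replicate 3. The RNA came from whole cultures, in which fewer cells of a type and less RNA per cell cannot be told apart.

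**Figure D2:**
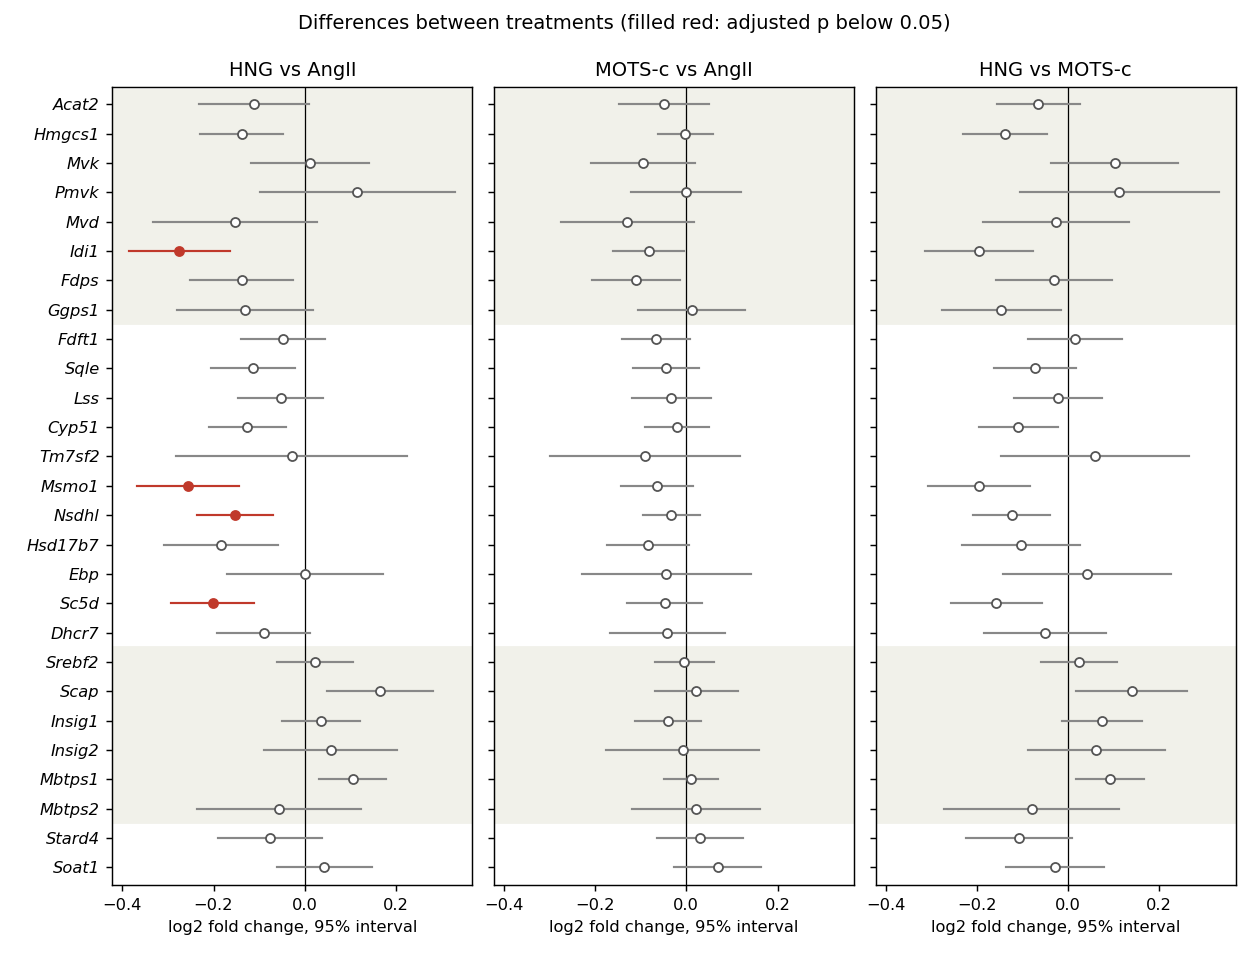
Fitted log2 fold change of each of the 27 genes with its 95% interval, for HNG against AngII, MOTS-c against AngII and HNG against MOTS-c (4 libraries per group). Filled red points have an adjusted p below 0.05, which holds for Idi1, Msmo1, Nsdhl and Sc5d in the first panel, and the shaded bands separate the same roles as in the plot of levels.

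Of the 8 mevalonate and isoprenoid enzymes, 1 was called lower with HNG and 6 had a log2 fold change below 0, with a median of -0.135. Idi1 turns isopentenyl diphosphate into its isomer, the pair from which all longer isoprenoids are joined. Its level was 122, 119, 118 and 114 CPM in the AngII libraries and 102, 104, 87.8 and 95.6 CPM in the AngII+HNG libraries. The 2 groups did not overlap, and replicate 3 was the lowest library of AngII+HNG. The fitted log2 fold change of Idi1 was -0.28 (SE 0.051, 95% interval -0.39 to -0.16, adjusted p = 0.00741), and without that library it was -0.23 (adjusted p = 0.00472). Idi1 overlaps the gene Wdr37 in the RefSeq annotation, and whether strand was used in counting is not given in the sources used here. Wdr37 itself differed by 0.05 (SE 0.086, adjusted p = 0.81).

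Hmgcs1, which makes HMG-CoA, had 459, 463, 446 and 443 CPM in AngII and 441, 410, 387 and 406 CPM in AngII+HNG. Its groups did not overlap either, but the margin between them was narrow and the difference of -0.14 (SE 0.042) did not pass the threshold (adjusted p = 0.08). Hmgcs1 was called lower by DESeq2, in the fit of all 12 libraries, with either replicate block and without AngII+HNG replicate 1. Fdps differed by -0.14 (SE 0.053, adjusted p = 0.157) and did not pass. It was called lower with either replicate block and without AngII+HNG replicate 3. The remaining enzymes of this arm were not called. Acat2, Mvd and Ggps1 had log2 fold changes of -0.11, -0.15 and -0.13. The kinases Mvk and Pmvk had 0.01 and 0.12, the latter with 28.8 CPM in AngII+HNG replicate 3 and 19.5 to 21.7 CPM in the other 3 libraries of that group.

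Of the 11 enzymes from squalene onward, 3 were called lower with HNG and 10 had a log2 fold change below 0, with a median of -0.113. Msmo1, Nsdhl and Hsd17b7 act one after the other to take the methyl groups off carbon 4 of the sterol ring. Msmo1 had 218, 219, 205 and 202 CPM in AngII and 188, 184, 173 and 160 CPM in AngII+HNG. No AngII+HNG library reached the lowest AngII library, and the log2 fold change was -0.26 (SE 0.052, 95% interval -0.37 to -0.14, adjusted p = 0.0117). Without AngII replicate 1 the adjusted p of Msmo1 was 0.0515, and without AngII+HNG replicate 3 it was 0.0159.

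Nsdhl had the tightest AngII values of all 27 genes, 92.6, 94.01, 93.96 and 95.2 CPM, against 87.4, 86.3, 82.6 and 81.1 CPM in AngII+HNG. The groups were apart and the log2 fold change was -0.15 (SE 0.038, 95% interval -0.24 to -0.07, adjusted p = 0.0338). The call was lost in 8 of 19 alternatives, among them the omission of any 1 AngII library, where the adjusted p was 0.079 to 0.0892, and of AngII+HNG replicate 2 (0.0589) or 4 (0.098). Hsd17b7 had 33.1, 33.1, 33.4 and 34.4 CPM in AngII and 30.9, 31.2, 26.2 and 29.5 CPM in AngII+HNG. Its groups did not overlap, and its difference of -0.18 (SE 0.058) missed the threshold (adjusted p = 0.0898). Hsd17b7 was called lower in the fit of all 12 libraries. Leaving out libraries moved its difference between -0.21 and -0.13.

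Sc5d, which puts a double bond into the ring late in the pathway, had 148, 158, 147 and 155 CPM in AngII and 139, 133, 125 and 130 CPM in AngII+HNG. All AngII+HNG libraries were lower than all AngII libraries, with a log2 fold change of -0.20 (SE 0.042, 95% interval -0.29 to -0.11, adjusted p = 0.0135). Without AngII replicate 2 the adjusted p of Sc5d was 0.0541, and without AngII+HNG replicate 3 it was 0.0163. Cyp51, which removes the first methyl group of lanosterol, had log2 fold change -0.13 with groups that did not overlap (adjusted p = 0.0862). It was called lower by DESeq2, in the fit of all 12 libraries and with the replicate block. The squalene synthase Fdft1 (-0.05), squalene epoxidase Sqle (-0.11), lanosterol synthase Lss (-0.05), Tm7sf2 (-0.03), the isomerase Ebp (0.00066) and the last reductase Dhcr7 (-0.09) were not called, and their groups overlapped.

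**Figure D3:**
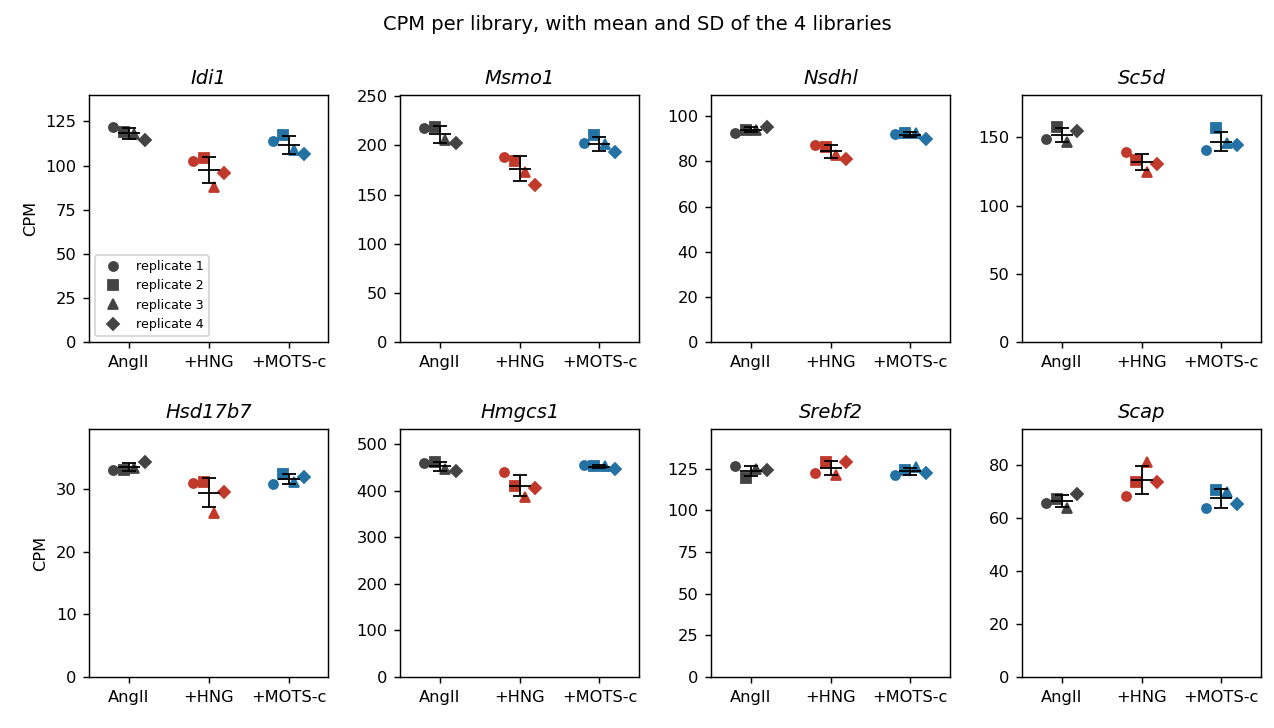
CPM of 8 genes in each library, with a marker for the replicate number and bars for the mean and SD of the 4 libraries of a treatment, on axes that start at 0. Idi1, Msmo1, Nsdhl, Sc5d, Hsd17b7 and Hmgcs1 are lower in all AngII+HNG than in all AngII libraries, while the treatments overlap for Srebf2 and Scap.

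Srebf2 and the 5 genes of its control were not called by edgeR in the 3 comparisons of 8 libraries. DESeq2 called Mbtps1 higher with HNG than with AngII and than with MOTS-c, the fit of all 12 libraries called it higher than in AngII, and Scap was called higher without AngII+HNG replicate 1. Srebf2 had 126, 120, 125 and 124 CPM in AngII, 123, 129, 121 and 129 CPM in AngII+HNG and 121, 124, 126 and 122 CPM in AngII+MOTS-c. The 3 treatments overlapped, and the 95% interval of the HNG difference, -0.06 to 0.11, is the range that these libraries allow for its mRNA. Scap had 65.9, 67.2, 63.8 and 69.2 CPM in AngII and 68.6, 73.9, 81.5 and 73.7 CPM in AngII+HNG. The highest value was again that of replicate 3, the log2 fold change was 0.16 (SE 0.053, adjusted p = 0.098), and without that library it was 0.12 (adjusted p = 0.149). Mbtps1, the first of the proteases that cleave SREBP2, had 225 to 235 CPM in AngII and 245 to 251 CPM in AngII+HNG. Its groups did not overlap, with a log2 fold change of 0.11 (SE 0.034, adjusted p = 0.0937). The corresponding values were -0.06 for Mbtps2, 0.04 for Insig1 and 0.06 for Insig2, with overlapping groups, and Mbtps2 overlaps the gene Yy2 in the annotation. Of the 2 remaining genes, Stard4 had -0.08 and Soat1 had 0.04, and neither was called.

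With MOTS-c, 0 of the 27 genes were called, by edgeR or by DESeq2, where 0.0069% of the 14488 genes tested were called by edgeR. An unadjusted p below 0.05 was found for 2 genes, both lower, against 5.05% of all genes. The log2 fold change was below 0 for 21 and above 0 for 6 genes, with a median of -0.041 beside -0.00076 over all tested genes. The median was -0.024 without AngII replicate 2 and -0.023 without AngII+MOTS-c replicate 4. Among the 19 enzymes it was below 0 for 18, the exception being Ggps1. In 2 genes, Nsdhl and Hsd17b7, the AngII+MOTS-c libraries all lay below the AngII libraries (1.7% of all genes), and in 0 genes above (1.75%). This comparison and the one of HNG share the AngII libraries, so that a high AngII value enters both, and their values cannot be set against each other as independent.

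The 5 genes with the largest differences with MOTS-c were Mvd, Fdps, Mvk, Tm7sf2 and Hsd17b7. Mvd, which yields isopentenyl diphosphate, had 47.7, 50.5, 40.8 and 42.4 CPM in AngII and 42.6, 44.3, 40.7 and 38.1 CPM in AngII+MOTS-c. The 2 groups overlapped and the log2 fold change was -0.13 (SE 0.067, 95% interval -0.27 to 0.02). Fdps had 381, 393, 383 and 357 CPM against 380, 351, 346 and 325 CPM, with a log2 fold change of -0.11 (SE 0.045, 95% interval -0.21 to -0.01). The overlap came from AngII+MOTS-c replicate 1, which reached the level of the AngII libraries. Mvk had 37.7, 37.96, 34.5 and 36.7 CPM against 34.2, 34.8, 36.9 and 31.7 CPM, a difference of -0.09 (SE 0.052). Tm7sf2 had 21.0, 22.9, 18.7 and 15.9 CPM against 17.8, 19.9, 18.5 and 17.3 CPM, and its difference of -0.09 (SE 0.096) was within its error. In Hsd17b7 the AngII+MOTS-c libraries had 30.8, 32.5, 31.2 and 31.9 CPM, all below the lowest AngII library, with a log2 fold change of -0.08 (SE 0.042), which was -0.13 with limma on log2(FPKM + 1) and -0.15 on log2(FPKM + 0.1). The adjusted p was 0.943 for Tm7sf2 and 0.924 for the other 4. Single libraries moved these differences, which were -0.07 for Mvd and -0.01 for Tm7sf2 without AngII replicate 2, -0.06 and -0.18 for Tm7sf2 without AngII replicates 1 and 4, -0.15 for Tm7sf2 without replicate 4 of both groups, and -0.06 for Mvk without AngII+MOTS-c replicate 4. The 4 genes lower with HNG had log2 fold changes of -0.08 (Idi1), -0.06 (Msmo1), -0.05 (Sc5d) and -0.03 (Nsdhl) with MOTS-c. Sc5d had -0.03 without AngII replicate 2, without AngII+MOTS-c replicate 1 or without replicate 4 of both groups, and -0.08 without AngII+MOTS-c replicate 2, while Nsdhl had -0.02 without replicate 4 of both groups.

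In the direct comparison of the peptides 0 of the 27 genes were called by edgeR, where 1.77% of the 14448 genes tested were called lower and 2.64% higher with HNG than with MOTS-c. DESeq2 called 5 lower and 1 higher, and an unadjusted p below 0.05 was found for 9 genes, 7 of them lower (19.3% of all genes in either direction). The median log2 fold change was -0.030, beside 0.0023 over all tested genes. It depended on single libraries, being -0.017 without AngII+HNG replicate 1, -0.053 and -0.046 without AngII+HNG replicates 2 and 3, and -0.062 without AngII+MOTS-c replicate 4. All AngII+HNG libraries lay below all AngII+MOTS-c libraries in 7 genes (6.07% of all genes) and above them in 1 (6.44%). The lower genes were Idi1, Msmo1, Nsdhl, Sc5d, Hmgcs1, Cyp51 and Ggps1. The AngII+MOTS-c libraries had 114, 117, 109 and 106 CPM of Idi1, and HNG against MOTS-c differed by -0.20 (SE 0.055, 95% interval -0.31 to -0.08, adjusted p = 0.0661). Msmo1 had 202, 211, 201 and 193 CPM with MOTS-c, and its difference of -0.19 (SE 0.052) had the smallest adjusted p of the 27 genes, 0.053. Sc5d had 140, 157, 146 and 145 CPM with MOTS-c and a difference of -0.16 (SE 0.046, adjusted p = 0.0789). Ggps1 had 30.0, 30.5, 30.5 and 31.2 CPM with MOTS-c and 29.6, 28.3, 24.6 and 28.01 CPM with HNG, a difference of -0.15 (SE 0.06, adjusted p = 0.205) that was -0.10 without AngII+HNG replicate 3. Scap had 63.9, 70.9, 69.9 and 65.4 CPM with MOTS-c, with overlapping groups and a difference of 0.14 (SE 0.056, adjusted p = 0.193) that was 0.09 without AngII+HNG replicate 3.

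Besides the 27 genes, 64 further genes of sterol and fatty acid metabolism were listed by role, of which 63 were tested. With HNG 3 of them were lower and 6 higher than in AngII, where 2.58% and 3.4% of all tested genes were. In the list of 11 genes of fatty acid synthesis, which answer to the related factor SREBP1, 2 were called lower and 9 had a log2 fold change below 0, with a median of -0.101. The malic enzyme Me1, a source of NADPH for lipid synthesis, had 236, 240, 230 and 233 CPM in AngII and 209, 205, 177 and 192 CPM in AngII+HNG, with a log2 fold change of -0.26 (SE 0.049, adjusted p = 0.00746). The fatty acid elongase Elovl6 had 87.4 to 91.8 CPM in AngII and 71.9 to 80.8 CPM in AngII+HNG, with a log2 fold change of -0.24 (SE 0.046, adjusted p = 0.00909). Both genes were low in all AngII+HNG libraries.

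Among the 5 genes of sterol efflux and the oxysterol receptor LXR, 1 was called higher. Abca1, which exports cholesterol from the cell, had 85.02, 79.3, 85.1 and 86.5 CPM in AngII and 109.6 to 113.4 CPM in AngII+HNG, with a log2 fold change of 0.41 (SE 0.039, adjusted p = 0.00013). It had 88.5 to 92.9 CPM in AngII+MOTS-c, above all AngII and below all AngII+HNG libraries, and its difference between MOTS-c and AngII was 0.12 (SE 0.035, adjusted p = 0.924). Of 5 enzymes that make or use oxysterols, Hsd3b7 was called higher, with 15.8 to 16.9 CPM in AngII and 19.4 to 20.0 CPM in AngII+HNG (log2 fold change 0.30, adjusted p = 0.00712). In the list of 12 further genes of SREBP control, Tmem97, a sterol responsive membrane protein, fell by 0.21 on the log2 scale (adjusted p = 0.0379). In the same list Srebf1, which encodes SREBP1, rose from 154.7 to 156.5 CPM in AngII to 168.0 to 178.0 CPM in AngII+HNG (log2 fold change 0.15, adjusted p = 0.0207), and Erlin2 rose by 0.17 (adjusted p = 0.0429). Of 14 genes of sterol uptake, transport and storage, Npc2, a lysosomal sterol binding protein, rose by 0.20 (adjusted p = 0.0263). None of the 12 users of isoprenoids and none of the 4 tested of 5 further sterol enzymes was called. The calls of Erlin2 and Tmem97 were lost in 13 and 10 of 19 alternatives, those of Npc2 and Srebf1 in 6 and 5.

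With MOTS-c 0 of the 63 genes were called against AngII, and 4 had an unadjusted p below 0.05, a share near the 5.05% of all genes. Between HNG and MOTS-c, where 1.77% of all genes were called lower and 2.64% higher, 2 of the 63 were called lower with HNG, Me1 (log2 fold change -0.27, adjusted p = 0.0102) and Elovl6 (-0.21, adjusted p = 0.0421). Another 3 were called higher, Abca1 (0.29, adjusted p = 0.00112), the sterol hydroxylase Cyp27a1 (0.35, adjusted p = 0.0321) and Hsd3b7 (0.27, adjusted p = 0.0381). The calls of Elovl6, Cyp27a1 and Hsd3b7 in this comparison were lost in 10, 9 and 9 of 19 alternatives.

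**Figure D4:**
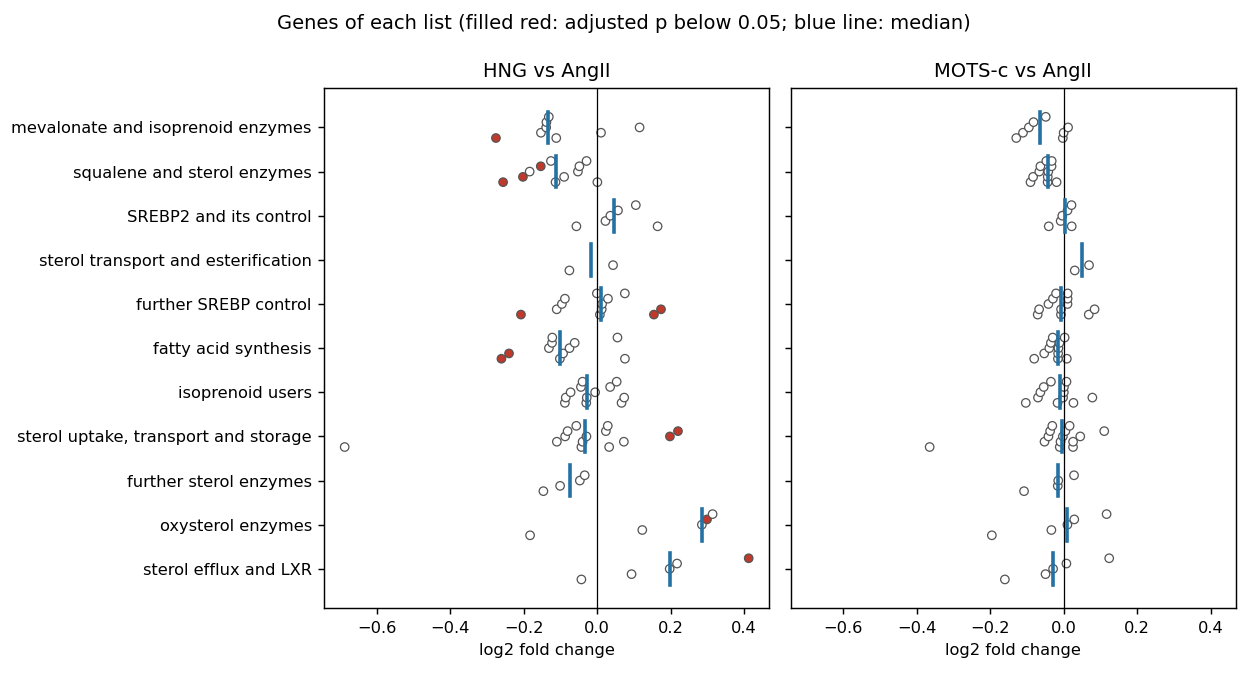
Fitted log2 fold change of every tested gene of the 4 groups of roles and the 7 further lists, for HNG against AngII and MOTS-c against AngII, with filled red points for an adjusted p below 0.05 and a blue line at each list's median. With HNG the medians of the mevalonate, sterol and fatty acid lists are -0.135, -0.113 and -0.101, those of the oxysterol and efflux lists are 0.285 and 0.197, and no point is filled for MOTS-c.

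Markers of other cells moved with HNG beside these genes. Of all tested genes, 3.4% were called higher and 2.58% lower with HNG than in AngII. All 8 fibroblast markers were measured, with a summed level of 11980 to 12812 FPKM in AngII, 11943 to 13498 in AngII+HNG and 12044 to 12835 in AngII+MOTS-c, and 1 of them, Tcf21, was higher with HNG (log2 fold change 0.28). Of 7 macrophage markers 3 were higher with HNG, Lyz2 (0.75), Cd68 (0.69) and Ptprc (0.37). The summed level of the 7 was 127.8 to 155.4 FPKM in AngII, 187.8 to 249.2 in AngII+HNG and 126.5 to 156.0 in AngII+MOTS-c. Lyz2 was the largest part of this sum, with means of 81.5 FPKM in AngII and 138.7 in AngII+HNG. The macrophage markers Adgre1 and C1qa were low, reaching at most 1.153 and 7.90 FPKM in the AngII and AngII+HNG libraries, and had log2 fold changes of -0.36 and 0.10 that were not called. Of 5 markers of smooth muscle and pericytes, which activated fibroblasts also express in part, Acta2 (-0.29), Cnn1 (-0.41) and Myh11 (-0.34) were lower with HNG. The summed level of the 5 was 2888 to 3040 FPKM in AngII, 2344 to 2536 in AngII+HNG and 2790 to 3068 in AngII+MOTS-c. Acta2 was the largest part of it, with means of 2827 FPKM in AngII and 2339 in AngII+HNG. Of 5 endothelial markers Kdr (0.43) and Tek (0.40) were higher, with a sum of 12.0 to 14.1 FPKM in AngII and 16.2 to 18.03 in AngII+HNG. Of 7 cardiomyocyte markers Tnni3 (0.43) was higher, with sums of 3611 to 3843 FPKM in AngII and 3569 to 4438 in AngII+HNG, and 0 of the Schwann, adipocyte and mesothelial markers tested were called. With MOTS-c edgeR called 0 markers. An unadjusted p below 0.05, which 5.05% of all genes had, was found for 3 of the 5 smooth muscle and pericyte markers, all with a log2 fold change below 0, and for 1 of 3 Schwann markers tested, Sox10 (0.62, adjusted p = 0.924). Cnn1 (log2 fold change -0.19, adjusted p = 0.69) and Myh11 (-0.15, adjusted p = 0.924) had AngII+MOTS-c libraries all below the AngII libraries, and the groups of Cspg4 (-0.14, adjusted p = 0.924) overlapped. The calls of Kdr, Ptprc and Tnni3 with HNG were lost in 7, 6 and 4 of 19 alternatives, and those of the other 7 markers named as higher or lower were kept. The Kdr difference was 0.28 at its smallest. The part of these markers in the changes of the sterol genes was not tested.

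Libraries of 1 treatment also differed among themselves in these genes. Over the 12 libraries, with the mean of each treatment removed, the 351 pairs of the 27 genes had a median Pearson correlation of 0.137, and the 171 pairs of enzymes a median of 0.363. The points share library and depth, so these are descriptions only. Mvd and Tm7sf2 (0.87) and Lss and Tm7sf2 (0.84) varied together, while Pmvk and Hsd17b7 ran opposite (-0.92, and -0.75 without AngII+HNG replicate 3). In AngII+MOTS-c, replicate 2 was the highest library for 16 and replicate 4 the lowest for 13 of the 27 genes. In AngII, replicate 4 was the lowest for 11 and replicate 2 the highest for 11, and in AngII+HNG replicate 4 was the lowest for 11. Replicate 4 had the lowest share of counts from the 27 genes in each treatment, with 0.354% in AngII, 0.335% in AngII+HNG and 0.345% in AngII+MOTS-c.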

How the data were processed

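The 12 mRNA libraries were read from both ends on a DNBSEQ instrument, and the authors deposited raw counts for each gene as whole numbers. HISAT2, Picard 1.41 and SAMtools 0.1.18 are named in the submitters' processing notes, while the genome build, the counting tool and whether it used strand are not given in the sources used here. The FPKM values were also deposited by the authors and divide each count by gene length and library total.

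Sample titles gave the groups, while doses and times follow the study's methods. The members and lists were chosen with earlier results of these data known. Genes were tested with edgeR 4.0.16 in R 4.3.3 (filterByExpr, TMM, glmQLFit and glmQLFTest on the 8 libraries of a comparison, Benjamini-Hochberg adjustment over all genes tested, threshold 0.05, no limit on the fold). The calculation was tested on simulated counts. Standard errors and 95% intervals were derived from the F statistic. CPM were scaled by TMM. Values per library were given for genes that passed the test and for the 5 largest differences of each comparison, and further genes of the pathway were named where they passed, except 1 that is not reported here. Hmgcs1, Srebf2, Mbtps1, Pmvk, Adgre1, C1qa, Wdr37, the cell type markers and the correlated pairs were named after their values were seen. Promoters and gene overlaps came from RefSeq tables, matched by symbol. Alternatives were DESeq2 1.42.0, limma 3.58.1 on FPKM, other scalings and filters, all 12 libraries in 1 fit, replicate blocks, summed replicates and the omission of libraries.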

Additional observations from a re-analysis of the deposited data

Results flagged for a closer look

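Among the 81 sets of 4 libraries (27 genes in 3 treatments), 3 held a library whose distance to its nearest neighbour exceeded Dixon's 95% limit for 4 values, where chance gives about 4. Hmgcs1 in AngII+MOTS-c replicate 4 had the lowest value, 446.484 CPM, while the other 3 libraries had 453.2 to 454.6 CPM. Insig2 in AngII replicate 4 had the highest value, 20.2686 CPM, against 17.05 to 17.49 CPM in the others. Soat1 in AngII replicate 1 had the lowest value, 61.3249 CPM, against 66.5 to 67.4 CPM. None of these 3 genes was called by edgeR in the 3 comparisons.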

How the results depend on the processing

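The 4 genes called lower with HNG had a log2 fold change below 0 under all 19 alternatives. Idi1 was called in all 19, Msmo1 in 18, Sc5d in 15 and Nsdhl in 11, with adjusted p of at most 0.0335, 0.0515, 0.0832 and 0.161. Against AngII the number of the 27 genes called lower with HNG was 7 with all 12 libraries in 1 fit and 2 to 5 when libraries were left out, and the number called higher was 1 with DESeq2, 1 with all 12 libraries and 0 to 1 when libraries were left out. Against MOTS-c the number called lower with HNG was 5 with DESeq2, 5 with all 12 libraries, 1 with at least 10 counts in every library and 0 to 2 when libraries were left out, and 1 was called higher with DESeq2. Over the alternatives that kept all libraries, the median log2 fold change of the 27 genes between HNG and MOTS-c ran from -0.0743 to -0.0156. The value of -0.0743 came after subtraction of a curve on gene length. The median for MOTS-c against AngII ran from -0.0424 to -0.0254. For HNG against AngII the median was -0.045 with limma on log2(FPKM + 1). With FPKM in place of CPM the groups of MOTS-c and AngII did not overlap in 1 gene. The order of levels by CPM had a Spearman correlation of 0.916 with that by FPKM. The cause of these shifts was not tested. Each of the 27 genes had at least 411 counts in every library, and p-values measure the spread between these libraries.

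The labels name no shared preparation for libraries of 1 replicate number, and the numbers were not taken as pairs. The correlations of same-numbered libraries had means of 0.0133, 0.054 and 0.111 in the 3 comparisons (HNG against AngII, MOTS-c against AngII, HNG against MOTS-c), only the pair of replicate 4 exceeded 0.1 in all 3 (0.136, 0.119 and 0.212), and 2, 4 and 5 of 8 libraries correlated best with their own number. Under the replicate block 7 genes were called lower with HNG against AngII and 3 against MOTS-c. When the library names defined the block, 6 were called lower against AngII and 1 against MOTS-c. In that fit against MOTS-c, replicate 1 of the 2 groups bore different numbers, so neither library had a partner in its block. With replicates 2 and 3 summed 3 were called lower against AngII, Idi1, Msmo1 and Sc5d, and 0 against MOTS-c.

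Over all genes HNG against AngII gave 869 calls, but 577 with replicates 2 and 3 summed, 541 without replicate 4 of both groups, and 431, 485 and 512 without AngII replicate 1, 2 or 3. It gave 1192 with DESeq2, 1035 with all 12 libraries, 1111 with the replicate block and 1113 with the block by library names. HNG against MOTS-c gave 637 calls, but 1034 with DESeq2, 975 with all 12 libraries, 1054 with the replicate block, 416 without AngII+HNG replicate 2, 324, 322 and 389 without AngII+MOTS-c replicate 1, 2 or 3, and 377 without replicate 4 of both groups. MOTS-c against AngII gave 1 call and 0 to 4 under the alternatives. With FPKM, 430 of 640 calls were higher for HNG against AngII, beside 494 of 869, and 316 of 437 against MOTS-c, beside 381 of 637.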
